A study of Mus musculus with 12 samples.

Results

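Bone marrow of mice without the Fanconi anemia genes Fancc, Fancg or both was compared, as a single pool of 9 arrays, with the marrow of 3 wild-type mice, to describe what loss of these genes had in common whichever gene was missing. The knockout side was the mean of the means of 3 groups, each of 3 mice: mice nullizygous for Fancc (Fancc-/-), mice nullizygous for Fancg (Fancg-/-), and mice nullizygous for both (double knockout). The wild-type mice were C57Bl/6. All 12 marrows were flushed from tibia and femur, were neither sorted nor cultured, and each gave 1 unpooled RNA and 1 Affymetrix array. The strain of the knockouts, the design of their alleles, and the age and sex of all mice are not given in the sources used here. Amplification began from 2 µg of total RNA, except for Fancg-/- replicate 3, with 0.91 µg.

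Of 17404 autosomal genes with a probe set of their own, 11525 were bright enough to be tested, and 333 of these (2.89%) differed between the knockout pool and wild type at an adjusted p below 0.05 (limma, Benjamini-Hochberg over all 11525 genes). In 706 genes (6.13%) the 9 knockout arrays lay all above or all below the 3 wild-type arrays. The genes that met both conditions, here called common genes, numbered 275 (2.39%), of which 126 (1.09%) were higher and 149 (1.29%) lower in the knockouts. The separation of the arrays uses the same contrast as the test, so it is a description and no second piece of evidence. Values are log2 signals, so a difference of 1 is 2-fold, and each change is the knockout mean minus the wild-type mean with its standard error (SE).

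FANCC and FANCG are subunits of the Fanconi core complex, a nuclear ubiquitin ligase that marks FANCD2 and FANCI so that DNA crosslinks can be repaired. Loss of a core subunit is known for progressive failure of blood formation in people, while mice without one usually keep near normal blood counts when unchallenged and have weakened stem and progenitor cells. Marrow holds most stages of B-cell and red-cell development beside granulocytes, monocytes and other blood cells. In an unsorted marrow, fewer cells of a type and less RNA of a gene per cell cannot be told apart, and this holds for all results below.

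The marrow label was checked on its most abundant cells. S100a8, a calcium-binding protein of neutrophils, read 14.13 to 14.26 on the knockout arrays and 14.19 to 14.22 on the wild-type arrays. Of 10 skeletal muscle genes 6 passed the filter on dim genes. The brightest, Mylpf, a myosin light chain, read 5.54 to 6.43 in the knockouts and at most 5.72 in wild type. Their median moved by -0.10 to 0.11 on the knockout arrays and by -0.05 to 0.03 on the wild-type arrays, each from the wild-type mean. Correlations of whole arrays ran from 0.945 to 0.9892 between knockout and wild-type arrays, from 0.9553 to 0.989 between knockout groups and from 0.9536 to 0.993 within groups. No pair of arrays was identical.

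The targeted genes gave a partial check of the genotypes. On the brighter of its probe sets by symbol, Fancg read 6.72, 6.55 and 6.43 in Fancc-/-, 6.55, 6.00 and 6.64 in Fancg-/-, 5.61, 5.83 and 5.78 in double-knockout and 6.79, 6.86 and 6.86 in wild-type marrows. It was lowest in the double knockouts, while Fancg-/- replicates 1 and 3 overlapped the Fancc-/- arrays. Over the pool Fancg on this probe set was lower by a log2 change of -0.60 ± 0.13 (adjusted p = 0.0299, limma). That change holds the deletion in part and is no finding. On another probe set the Fancg-/- arrays read 6.43, 5.92 and 6.67. All were below the Fancc-/- arrays at 6.76, 6.68 and 6.78 and the wild-type arrays at 6.92, 6.82 and 6.89. Fancc read 6.17, 6.04 and 5.96 in Fancc-/-, 5.97, 6.13 and 6.18 in Fancg-/-, 6.01, 5.79 and 5.57 in double-knockout and 6.05, 5.90 and 6.18 in wild-type marrows (-0.07 ± 0.11, adjusted p = 0.786, limma), so its signal in the Fancc-/- arrays lay within the wild-type range. On another probe set Fancc read 5.75, 5.69 and 5.87 in Fancc-/-, all above the wild-type arrays at 5.25, 5.33 and 5.35. Where on the genes these probes lie relative to the deletions is not given in the sources used here, so a level that did not fall checks nothing.

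The arrays also differed in sex-chromosome transcripts, which the labels do not mention. Xist, the RNA of the inactive X chromosome, read 12.13, 11.76 and 11.19 in Fancc-/-, 11.31, 7.34 and 10.75 in Fancg-/-, 7.39, 7.06 and 5.99 in double-knockout and 11.30, 12.15 and 12.23 in wild-type marrows. Eif2s3y, a Y-linked translation factor gene, read 2.94, 3.18 and 3.30 in Fancc-/-, 7.64, 9.09 and 5.78 in Fancg-/-, 9.35, 8.85 and 8.81 in double-knockout and 3.04, 3.20 and 2.89 in wild-type marrows. Fancg-/- replicates 1 and 3 carried both marks, the double knockouts and Fancg-/- replicate 2 the Y mark alone, and the Fancc-/- and wild-type arrays only Xist. For this reason X and Y genes were left out of the comparison. With the Xist level added to the model, 0 genes were called (smallest adjusted p = 0.0872, limma; 675 genes at an unadjusted p below 0.05, against 2118 without it). All 275 common genes kept their direction in that fit, and their median change in size was 0.751 both with and without the term. In that fit 265 of them had an unadjusted limma p below 0.05, and the median SE was 0.217 with the term and 0.141 without it. The common genes were chosen on these same arrays, so these values describe them and test nothing. The Xist slope comes from the spread within groups, widest in Fancg-/-, so the fit cannot separate sex from genotype between groups. Only the Fancc-/- group shares its sex marks with wild type. Every double-knockout array carries the Y mark alone, and every wild-type array only Xist. Each double-knockout change below is thus also a contrast between these marks, and so are its calls and its place among the groups. Every Fancg-/- array also read above wild type for Eif2s3y, so each pooled change and the counts from it hold part of this contrast. How much of these changes belongs to sex and how much to the lost genes was not tested. The 2 Fancg-/- arrays with both marks, replicates 1 and 3, were also those with the higher Fancg signal in their group. They read 6.55 and 6.64, against 6.00 on replicate 2, which had the Y mark alone. On the other Fancg probe set they read 6.43 and 6.67, against 5.92. The labels state that no RNA was pooled. Whether the 2 Fancg-/- RNAs with both marks hold material of more than 1 mouse was not tested. This bears on every Fancg-/- value, on the place of that group among the knockouts and on each pooled change below.

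**Figure D1:**
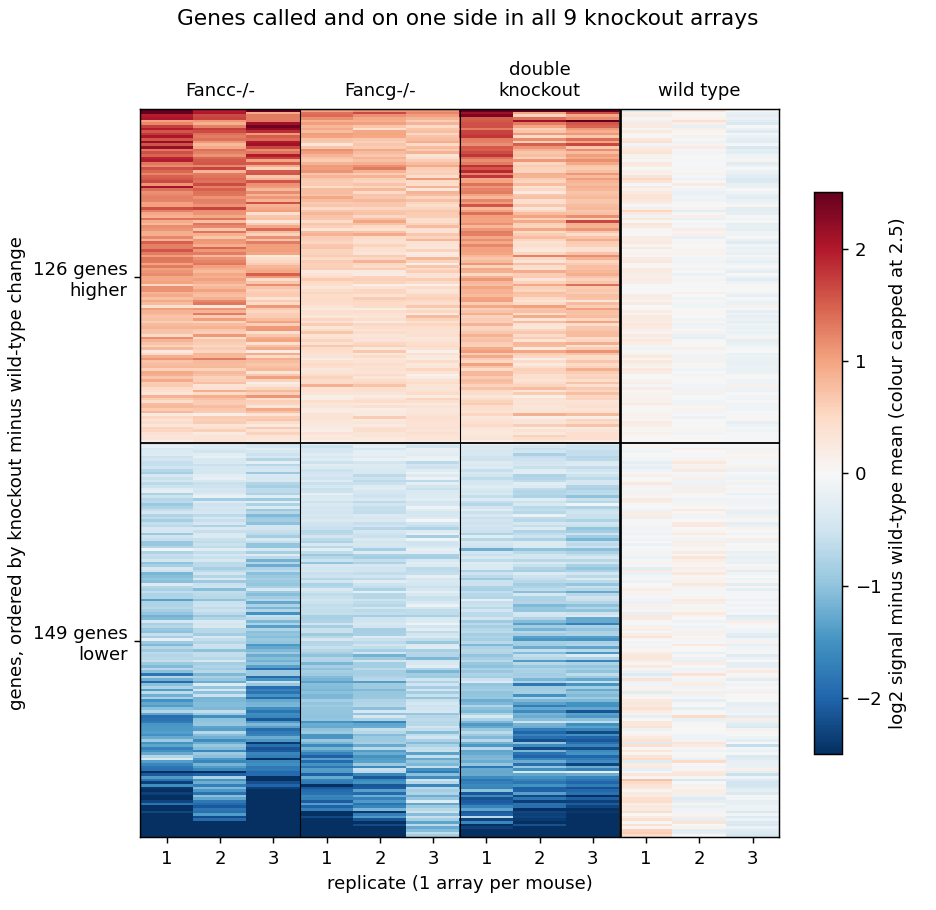
Log2 signal minus the wild-type mean for the 275 common genes (one line per gene, ordered by change) on the 9 knockout arrays and the 3 wild-type arrays; red is higher and blue lower, with the colour capped at 2.5. The 126 genes above the black line are red and the 149 below it are blue on every knockout array by construction; the Fancg-/- columns are the palest among the rises.

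The common genes did not move equally far in the 3 genotypes. Of the 126 rises, the Fancg-/- group had the smallest change in 111 and the Fancc-/- group the largest in 102. Of the 149 falls, Fancg-/- had the smallest change in 105, and the largest was that of Fancc-/- in 85 and of the double knockout in 54. The median over the 126 rises, measured from the wild-type mean, was 0.97, 0.91 and 0.82 on the Fancc-/- arrays, 0.53, 0.51 and 0.46 on the Fancg-/- arrays, 0.91, 0.55 and 0.71 on the double-knockout arrays and 0.13, -0.02 and -0.13 on the wild-type arrays. The same median over the 149 falls was -0.90, -0.70 and -1.06 in Fancc-/-, -0.79, -0.70 and -0.55 in Fancg-/-, -0.73, -0.83 and -0.96 in double-knockout and 0.06, 0.02 and -0.08 in wild-type marrows. The Fancg-/- arrays thus lay lower than every other knockout array over the rises, and over the falls they overlapped the rest. These medians are taken over genes chosen for their separation, so they describe the order of the groups and test nothing.

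**Figure D2:**
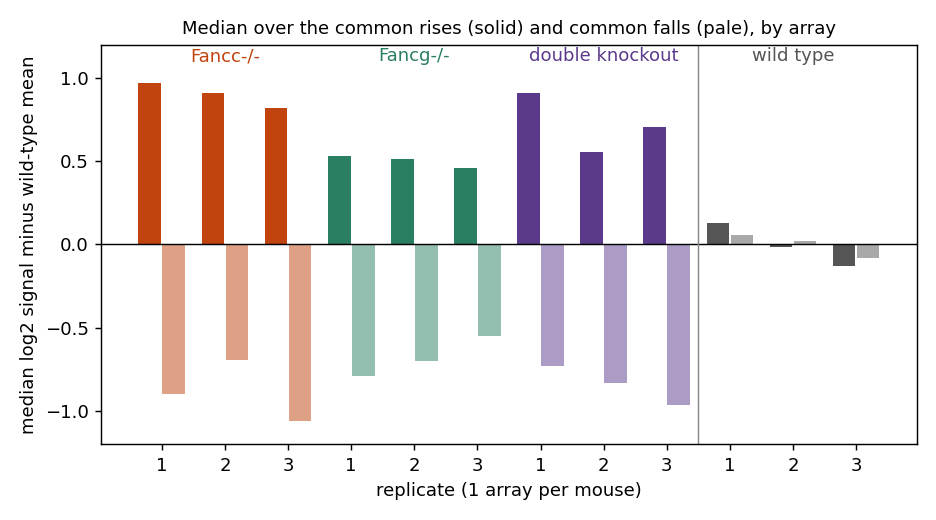
Median log2 signal minus the wild-type mean over the 126 common rises (solid bars) and the 149 common falls (pale bars), one pair of bars per array, with the knockout groups to the left of wild type. The rises are at 0.46 to 0.53 on the Fancg-/- arrays and at 0.55 to 0.97 on the other knockout arrays.

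A test of the knockout genotypes against each other called 0 of 11525 genes (limma F test, smallest adjusted p = 0.0799; 2027 genes, 17.6%, at an unadjusted p below 0.05). Among the common genes 108 of 275, or 39.3%, had an unadjusted F p below 0.05. The count of 0 depended on single arrays: without double-knockout replicate 1 the test called 1053 genes, without Fancc-/- replicate 3 it called 131, and with array weights 2080. In 159 common genes each of the 3 genotypes changed by over 0.5 on the log2 scale. The 3 genotypes share the same wild-type arrays, so their changes are given side by side and are not independent repeats. Taken alone in the same fit, Fancc-/- against wild type called 520 genes (4.51%), Fancg-/- 5 (0.0434%) and the double knockout 589 (5.11%, all limma). The double-knockout count also spans the difference in sex marks from wild type, whose part was not tested. Of the 275 common genes, 231 were called in Fancc-/- alone, 5 in Fancg-/- alone and 199 in the double knockout alone, so the term common describes the side on which the arrays lie and not a call in each genotype.

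The most even rise in size across genotypes was that of Slc35g1, a membrane transporter of the solute carrier families. Slc35g1 changed by 0.61 in Fancc-/-, 0.59 in Fancg-/- and 0.59 in double-knockout marrow (pool 0.59 ± 0.10, adjusted p = 0.00981, limma). Mgst3, a microsomal glutathione S-transferase, changed by 0.79, 0.83 and 0.79 in the same order. Cldn13, a claudin of mouse erythroblasts, changed by 1.11 in Fancc-/-, 1.05 in Fancg-/- and 1.06 in double-knockout marrow, Txnrd2, the mitochondrial thioredoxin reductase, by 0.67, 0.56 and 0.74, and Ctse, the protease cathepsin E, by 0.72, 0.56 and 0.55. Among falls the most even were Myo1e, a class I myosin, at -0.88 in Fancc-/-, -0.93 in Fancg-/- and -0.92 in double-knockout marrow, and Tbx21, the T-bet transcription factor, at -0.56, -0.62 and -0.56. Dpp4, a cell-surface peptidase, Snx30, a sorting nexin, and Slamf7, a receptor of lymphocytes and plasma cells, completed the 5, with pool changes of -1.42 ± 0.32, -0.66 ± 0.10 and -0.79 ± 0.12.

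The most uneven rise, ranked by the p of the F test among knockout groups and not by range, was that of Slc25a39. It encodes the mitochondrial carrier that imports glutathione. Slc25a39 read 12.76, 12.81 and 13.01 in Fancc-/-, 12.05, 12.10 and 12.12 in Fancg-/-, 12.20, 12.06 and 12.41 in double-knockout and 11.99, 11.89 and 11.83 in wild-type marrows. The limma F test gave an adjusted p of 0.0799, not past the threshold. Its Fancg-/- arrays stood barely above wild type, and its Fancc-/- arrays stood apart from all others. Tent5c, a poly(A) polymerase of plasma and erythroid cells, changed by 1.09 in Fancc-/-, 0.23 in Fancg-/- and 0.42 in double-knockout marrow, and Mkrn1, a ubiquitin ligase, by 1.22, 0.30 and 0.68. Mllt3, a transcription elongation factor known to maintain human blood stem cells, changed by 1.97 in Fancc-/-, 0.69 in Fancg-/- and 0.99 in double-knockout marrow. Among falls, Rgs2, a brake on G-protein signalling, changed by -0.97 in Fancc-/-, -0.37 in Fancg-/- and -0.63 in double-knockout marrow, and Sdc4, the proteoglycan syndecan 4, by -2.65, -1.29 and -0.66. Snx2, a sorting nexin, and Cd37, a tetraspanin of B cells, also changed most in Fancc-/-, by -0.83 and -0.90.

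Of the 149 common falls, 31 were in any list, and 17 of these belonged to the B-lineage lists on the surrogate light chain, transcription factors, receptor and surface, while 118 falls were in no list. Developing B cells rearrange their antibody genes with the RAG recombinase, pair the first heavy chain with a surrogate light chain, and then carry the antigen receptor with its signalling chains. Of 6 tested genes of the surrogate light chain and recombination list, 0 were called higher and 5 lower, where 1.32% and 1.57% of all genes were called higher and lower. In 2 of the 6 all knockout arrays lay below wild type, against 3.66% of all genes. The median change of the list was -2.68 (all genes -0.001), with -3.21 in Fancc-/-, -1.86 in Fancg-/- and -2.92 in double-knockout marrow. Its members ranged widely, from -3.56 for Vpreb1 to -0.28 for Rag2.

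Rag1, the recombinase subunit, read 3.52, 3.47 and 3.32 in Fancc-/-, 3.60, 3.77 and 6.53 in Fancg-/-, 3.06, 3.36 and 3.97 in double-knockout and 7.84, 7.37 and 6.93 in wild-type marrows. Fancg-/- replicate 3 lay just under the wild-type arrays and the other 8 knockout arrays far below them. The change was -3.53 ± 0.49, or 11.6-fold lower (adjusted p = 0.00429, limma). Vpreb1, the variable-like part of the surrogate light chain, read 4.16, 4.16 and 4.31 in Fancc-/-, 5.07, 5.88 and 8.92 in Fancg-/-, 4.20, 5.21 and 5.70 in double-knockout and 8.99, 9.30 and 8.27 in wild-type marrows. Its change of -3.56 ± 0.62 passed the test (adjusted p = 0.0108, limma), but Fancg-/- replicate 3 stood above 1 wild-type array, so it is no common gene. The other surrogate chain, Igll1, was likewise called at -2.18 ± 0.38 and overlapped wild type on that array alone, at 8.55 against 8.27 to 8.82. Vpreb3, a protein of pre-B cells, changed by -3.99 in Fancc-/-, -2.29 in Fancg-/- and -3.27 in double-knockout marrow. The list median on Fancg-/- replicate 3 was -0.41, against -2.49 to -3.24 on the other 8 knockout arrays and -0.41 to 0.29 on the wild-type arrays. This array had the smaller RNA input and both sex marks, and the part of either in the result was not tested.

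Of 11 transcription factors of the B lineage, 4 were called lower (background 1.57%) and 0 higher (1.32%). On all 9 knockout arrays 9 of them lay below wild type, against 3.66% of all genes. Bach2, a repressor that holds B cells before plasma cell differentiation, read 4.97, 5.88 and 4.90 in Fancc-/-, 5.28, 6.03 and 7.28 in Fancg-/-, 6.21, 5.40 and 5.28 in double-knockout and 8.60, 8.63 and 8.40 in wild-type marrows. The gap of -1.12 between its highest knockout and lowest wild-type array was the widest among the falls, and its change was -2.85 ± 0.35 (7.22-fold lower, adjusted p = 0.00268, limma). Ebf1, a pioneer factor that opens B-cell genes, read 3.74, 4.52 and 4.44 in Fancc-/-, 4.61, 4.81 and 6.09 in Fancg-/-, 5.78, 4.71 and 4.57 in double-knockout and 7.42, 7.75 and 7.07 in wild-type marrows. Its change was -2.60 ± 0.33 (6.08-fold lower, adjusted p = 0.00268, limma), and no knockout array reached wild type. Spib, an Ets factor of B cells and plasmacytoid dendritic cells, changed by -2.42 ± 0.39, and Pou2af1, a co-activator at octamer promoters, by -1.42 ± 0.30. Pax5, also in the list, changed by only -0.19 ± 0.06 and was not called (adjusted p = 0.1445, limma). Its probe set was dim, with means of 4.77 in the knockouts and 4.96 in wild type.

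Of 16 genes of the B-cell receptor and surface, 14 were called lower (background 1.57%) and 0 higher (1.32%). On all knockout arrays 11 lay below wild type, against 3.66% of all genes. Cd79a, the signalling chain of the receptor, read 7.56, 8.28 and 7.73 in Fancc-/-, 8.36, 8.75 and 9.48 in Fancg-/-, 8.74, 8.49 and 8.09 in double-knockout and 10.64, 10.20 and 10.30 in wild-type marrows, a change of -1.99 ± 0.23 (3.98-fold lower, adjusted p = 0.00192, limma). Its partner Cd79b changed by -2.35 in Fancc-/-, -1.27 in Fancg-/- and -2.26 in double-knockout marrow. Ms4a1, which encodes CD20, changed by -2.05 ± 0.37, Cd22, an inhibitory lectin of B cells, by -1.90 ± 0.33, and Fcrla, an Fc receptor-like protein of B cells, by -2.15 ± 0.37. The list median was -2.09, -1.47 and -2.05 on the Fancc-/- arrays, -1.62, -1.20 and -0.70 on the Fancg-/- arrays, -1.18, -1.71 and -1.88 on the double-knockout arrays and 0.21, -0.002 and -0.14 on the wild-type arrays. Outside the lists, the largest common falls were Niban3 at -3.11 ± 0.39, Akap12, a scaffold for protein kinase A, at -2.61 ± 0.35, the immunoglobulin variable segment Ighv14-2 at -2.31 ± 0.52 and Fcmr, the receptor for IgM, at -2.26 ± 0.38.

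Genes of the antibody-secreting end of the lineage did not move together. Of 11 immunoglobulin and plasma cell genes, 2 were called lower (background 1.57%) and 0 higher (1.32%), with 6 values above and 5 below wild type and a median of 0.01. Irf4, a factor of plasma cells that also acts in pre-B cells, read 7.14, 6.88 and 6.91 in Fancc-/-, 6.58, 7.18 and 7.53 in Fancg-/-, 7.28, 7.27 and 6.96 in double-knockout and 8.21, 9.02 and 8.32 in wild-type marrows. It was lower in every knockout by a near equal step in each genotype (-1.54 in Fancc-/-, -1.42 in Fancg-/- and -1.35 in double-knockout marrow; pool adjusted p = 0.00444, limma). Igk, named here after its values were seen, read 9.59 to 12.69 on the 9 knockout arrays and 8.74 to 9.34 on the wild-type arrays, all knockouts above wild type, without passing the test (1.51 ± 0.40, adjusted p = 0.0706, limma).

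**Figure D3:**
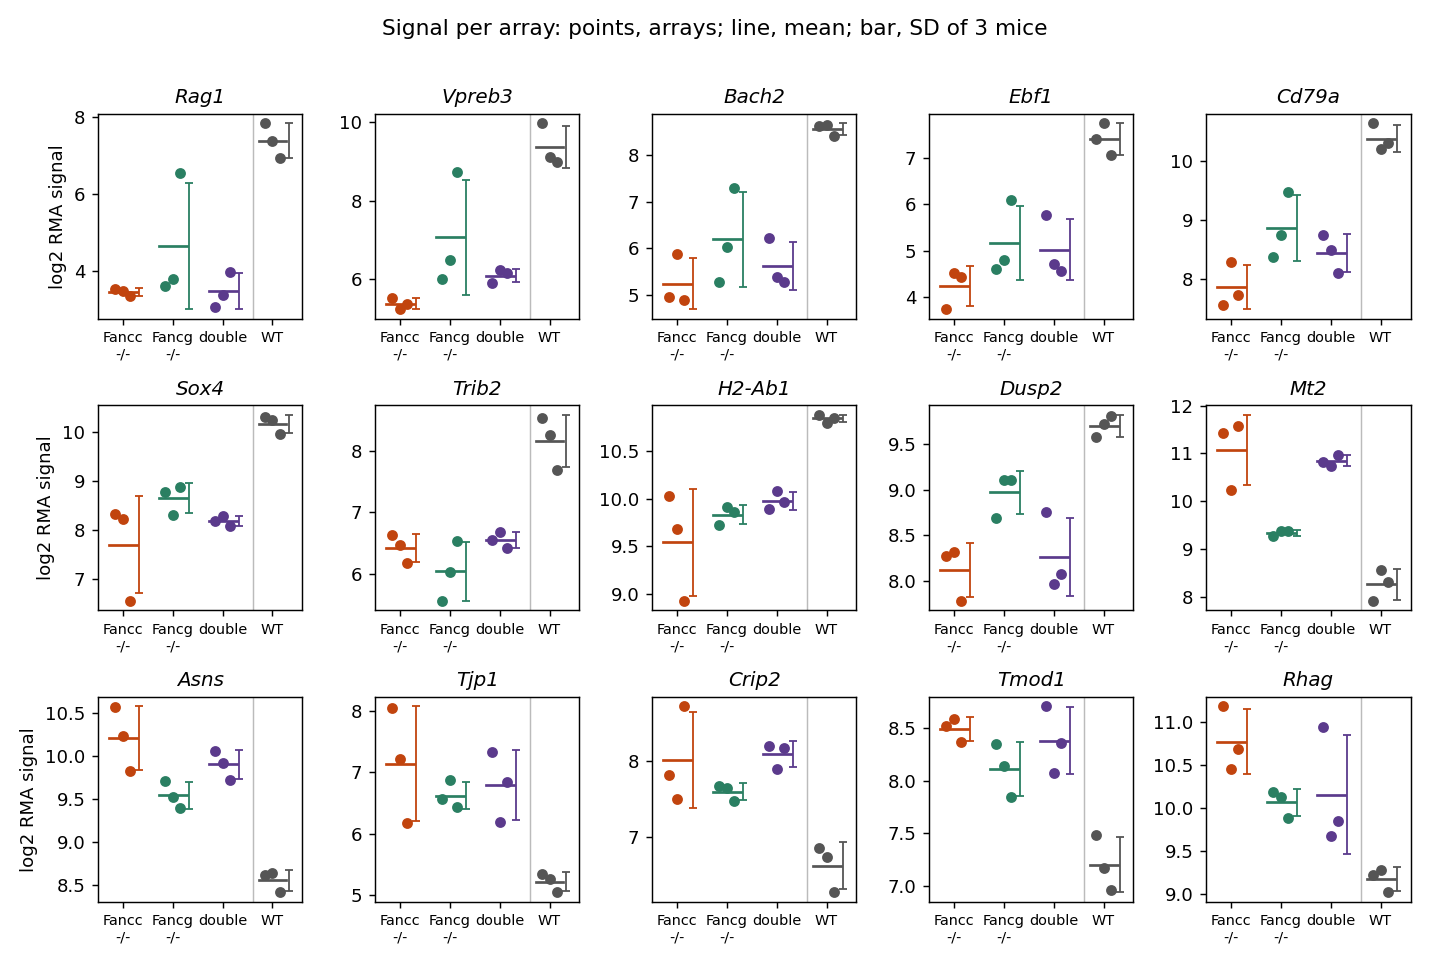
Log2 signal of 15 common genes on each array (points), with the mean (line) and the SD of 3 mice (bar) for Fancc-/-, Fancg-/-, double-knockout and wild-type marrow. No knockout point crosses the wild-type points in any panel; Fancg-/- replicate 3 is the highest knockout point for Rag1, Vpreb3, Bach2, Ebf1 and Cd79a.

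MHC class II genes present antigen on B cells, dendritic cells and macrophages. Of 10 tested, 7 were called lower (background 1.57%) and 0 higher (1.32%), with a median of -0.99. On all knockout arrays 9 lay below wild type, against 3.66% of all genes. The tenth, H2-Ea, changed by 0.13 ± 0.12 (adjusted p = 0.592, limma). H2-Ab1, a class II beta chain, read 10.03, 9.68 and 8.92 in Fancc-/-, 9.72, 9.91 and 9.87 in Fancg-/-, 9.89, 10.08 and 9.96 in double-knockout and 10.88, 10.80 and 10.85 in wild-type marrows. Every knockout array was at least 0.72 below the lowest wild-type array (change -1.06 ± 0.17, adjusted p = 0.00838, limma). H2-Eb1, the other beta chain, changed by -1.01 ± 0.18, and H2-DMb2 and H2-Ob, which take part in loading the peptide, by -1.14 ± 0.19 and -1.86 ± 0.35. The list median on Fancc-/- replicate 3 was -1.92, against -0.73 to -0.98 on the other 8 knockout arrays.

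Among stem and progenitor genes 2 of 13 were called lower (background 1.57%) and 0 higher (1.32%). Sox4, a factor of early progenitors and pro-B cells, read 8.33, 8.22 and 6.56 in Fancc-/-, 8.78, 8.31 and 8.88 in Fancg-/-, 8.18, 8.29 and 8.09 in double-knockout and 10.30, 10.23 and 9.95 in wild-type marrows, a change of -1.98 ± 0.30 (adjusted p = 0.00582, limma). Its 4 other fitted probe sets were also called, at -1.02 to -1.76, each with all knockout arrays below wild type. Myb, a factor that progenitors of all lineages need, changed by -0.80 ± 0.15, with -0.59 in Fancc-/-, -0.53 in Fancg-/- and -1.26 in double-knockout marrow. Trib2, a pseudokinase that promotes degradation of C/EBP alpha, read 6.63, 6.46 and 6.18 in Fancc-/-, 5.56, 6.03 and 6.53 in Fancg-/-, 6.54, 6.67 and 6.42 in double-knockout and 8.54, 8.26 and 7.70 in wild-type marrows. It changed by -1.83 ± 0.20 (adjusted p = 0.00183, limma), with -1.74 in Fancc-/-, -2.13 in Fancg-/- and -1.62 in double-knockout marrow, and stands outside the lists.

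EBF1 is a known activator of B-cell genes, and the promoters of the common falls were searched on both strands for its motif, TCCC followed by any 2 bases and GGGA, which reads the same on both strands. Promoters are RefSeq windows of 300 bases on GRCm38.p6, with 250 before and 50 after the gene start, and are available for 119 of the 149 falls. The motif stood in 8 of these 119 genes (6.7%), against 2 of 105 common rises (1.9%), 121 of 9320 genes tested (1.3%) and 279 of 25748 autosomal genes of the table (1.1%). A match is a description of letters and no binding site. The windows around the matches of 7 of these genes are shown to let the motif be read in its setting, 5′ to 3′ on the strand of the gene, with the motif in capitals.
Cd22, chr7:30879058-30879087, minus strand: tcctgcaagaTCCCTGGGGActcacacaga
Myo1e, chr9:70207134-70207163, plus strand: tgggggtggcTCCCTGGGGAcggctaggac
Sdc4, chr2:164443256-164443285, minus strand: gcctaagcttTCCCGGGGGAattccgggcg
Dpp4, chr2:62412327-62412356, minus strand: aagtgaacatTCCCCAGGGAggattaatac
Neil1, chr9:57148467-57148496, minus strand: ccatcttgggTCCCCAGGGAttgtttatct
Gimap6, chr6:48708418-48708447, minus strand: gggaaagatcTCCCTAGGGAgtgagctcag
Wsb1, chr11:79243133-79243162, minus strand: tatacttattTCCCTTGGGAaacaatgtgt

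The changes of these 7 genes were -1.90 for Cd22, -0.91 for Myo1e, -1.53 for Sdc4, -1.42 for Dpp4, -1.21 for Neil1, a DNA glycosylase, -0.99 for Gimap6, a GTPase of lymphocytes, and -0.45 for Wsb1, a ubiquitin ligase adaptor. Only Cd22 is a member of the B-lineage lists, where 1 of 14 genes with a promoter held the motif.

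Of the 126 common rises, 27 were in any list, and 22 of these belonged to the red-cell, heme and iron lists, while 99 rises were in no list. Erythroblasts fill with hemoglobin, build heme in the mitochondrion, and assemble a membrane skeleton of spectrin, ankyrin and adducin. Of 17 tested genes of the red-cell membrane 9 were called higher (background 1.32%) and 0 lower (1.57%), all 17 had a higher mean in the knockouts, and 9 lay above wild type on all 9 knockout arrays, against 2.46% of all genes. The median change was 0.83, with 1.15 in Fancc-/-, 0.71 in Fancg-/- and 0.75 in double-knockout marrow. Rhag, a gas channel of the Rh complex, read 11.19, 10.45 and 10.69 in Fancc-/-, 10.18, 10.13 and 9.89 in Fancg-/-, 10.95, 9.67 and 9.85 in double-knockout and 9.22, 9.28 and 9.02 in wild-type marrows (1.16 ± 0.23, 2.24-fold higher, adjusted p = 0.0213, limma). Add2, beta adducin, read 8.49, 8.10 and 7.79 in Fancc-/-, 7.78, 7.71 and 7.25 in Fancg-/-, 8.43, 7.79 and 7.80 in double-knockout and 6.75, 6.73 and 6.69 in wild-type marrows, with every knockout array at least 0.50 above wild type (1.18 ± 0.18, adjusted p = 0.00569, limma). Tmod1, which caps the actin filaments of the skeleton, changed by 1.12 ± 0.16, Tspan33, a tetraspanin of erythroid progenitors, by 1.08 ± 0.14, and Ank1, the erythroid ankyrin, by 1.07 ± 0.25. The list median on the arrays was 1.27, 1.18 and 0.97 in Fancc-/-, 0.74, 0.82 and 0.58 in Fancg-/-, 1.29, 0.50 and 0.50 in double-knockout and 0.20, -0.02 and -0.18 in wild-type marrows, so double-knockout replicate 1 stood with the Fancc-/- arrays while replicates 2 and 3 were the lowest of the knockouts.

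Of 8 tested hemoglobin and red-cell enzyme genes 5 were called higher (background 1.32%) and 0 lower (1.57%), with a median of 0.67. Car1, carbonic anhydrase 1, read 12.35, 11.24 and 12.17 in Fancc-/-, 10.84, 10.76 and 11.08 in Fancg-/-, 11.42, 10.78 and 11.16 in double-knockout and 10.57, 10.05 and 9.88 in wild-type marrows (1.14 ± 0.22, adjusted p = 0.0174, limma). Prdx2, the abundant peroxide scavenger of red cells, changed by 0.74 ± 0.11, and Hbb-b2, a beta globin, by 0.61 ± 0.11. Globin genes have near-identical copies, so the share of each copy in a probe set is uncertain. Of 11 heme synthesis genes 5 were called higher (background 1.32%) and 0 lower (1.57%), among them Fech, which inserts iron into heme (0.88 ± 0.14), Urod, an earlier enzyme of the path (0.83 ± 0.16), and Glrx5, which passes on iron-sulfur clusters (0.69 ± 0.09). Of 12 iron genes 1 was called higher (background 1.32%), Tfr2, the second transferrin receptor, at 0.67 ± 0.12. Of 12 erythroid transcription factors and signals 4 were called higher (background 1.32%) and 0 lower (1.57%): Gfi1b (0.86 ± 0.17), Epor, the erythropoietin receptor (0.75 ± 0.18), Zfpm1, the GATA1 partner FOG1 (0.66 ± 0.16), and E2f2 (0.58 ± 0.10).

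The promoters of the erythroid, heme and iron members among the common genes were searched on both strands for the GATA motif AGATAA, read as TTATCT on the other strand. It stood in 2 of the 16 genes with a promoter (12.5%), against 12.4% of the common rises, 8.0% of all genes tested and 12.7% of all autosomal genes of the table. The match in each is printed with 10 bases on either side, the motif in capitals, because Epor and Icam4, a red-cell adhesion molecule that changed by 0.84 ± 0.18, were common rises.
Epor, chr9:21963615-21963640, minus strand: tggctgtagcTTATCTgtccccagcc
Icam4, chr9:21029379-21029404, plus strand: gggtgccttcTTATCTcctgcggcca

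**Figure D4:**
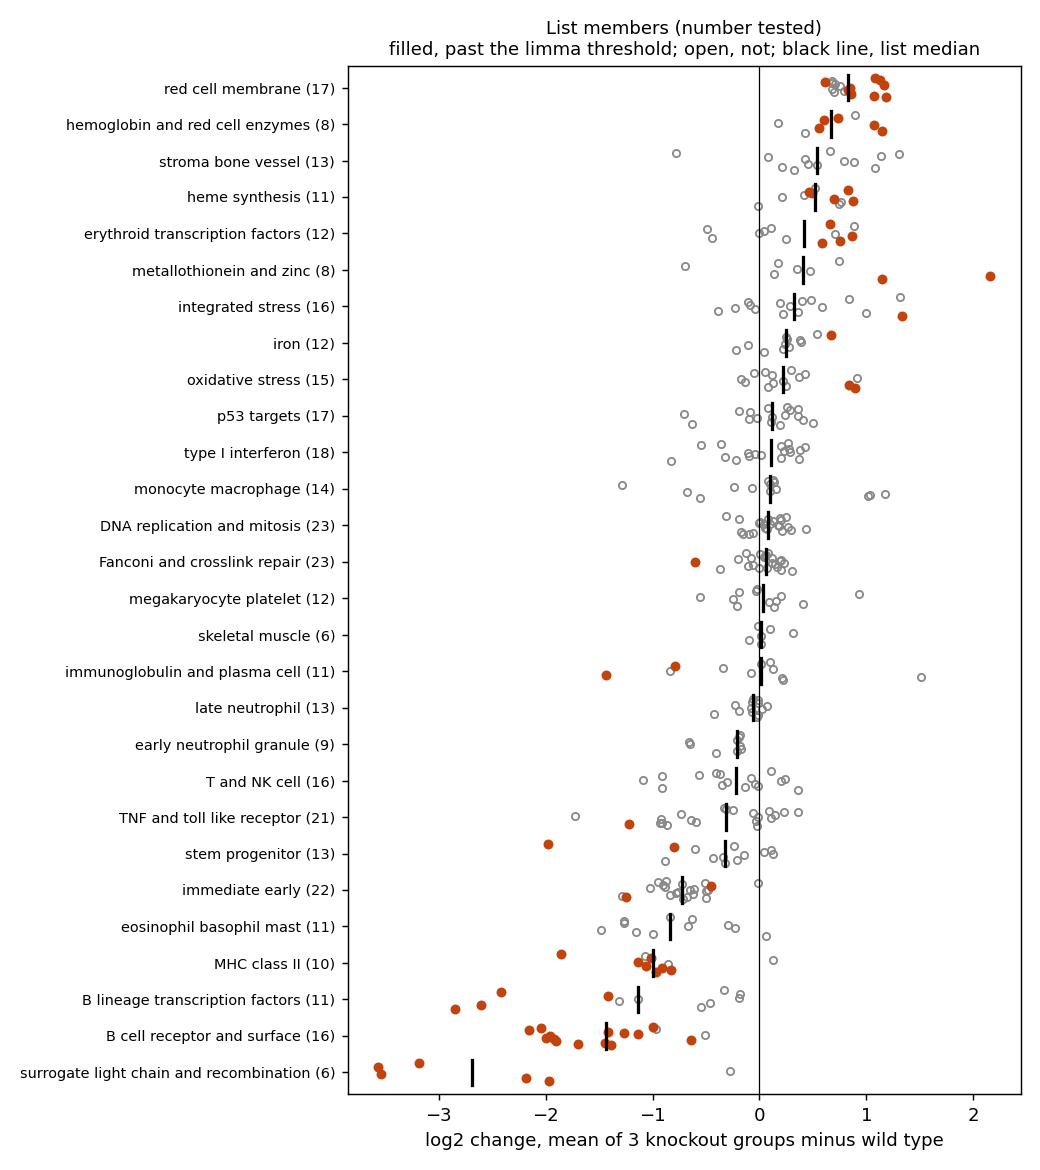
Log2 change, mean of the 3 knockout groups minus wild type, for each tested member of 28 gene lists; filled points passed the limma threshold, open points did not, and the black line is the list median. Red-cell, heme and hemoglobin lists lie right of 0 with medians of 0.52 to 0.83, and MHC class II and B-lineage lists lie left of 0 with medians of -0.99 to -2.68.

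The largest rise of all common genes was that of Mt2, a metallothionein, a small protein that binds zinc and copper and is induced by metals, glucocorticoids and oxidants. Mt2 read 11.44, 10.24 and 11.57 in Fancc-/-, 9.27, 9.38 and 9.38 in Fancg-/-, 10.83, 10.74 and 10.97 in double-knockout and 7.92, 8.56 and 8.32 in wild-type marrows. All knockout arrays were at least 0.71 above wild type, with the Fancg-/- arrays lowest (2.15 ± 0.23, 4.45-fold higher, adjusted p = 0.00183, limma). Mt1, which lies beside it on chromosome 8, read 10.99, 10.21 and 11.51 in Fancc-/-, 9.71, 10.10 and 9.89 in Fancg-/-, 10.56, 10.91 and 11.08 in double-knockout and 9.34, 9.50 and 9.38 in wild-type marrows (1.14 ± 0.21, adjusted p = 0.0144, limma). Of the 8 tested metallothionein and zinc genes these 2 were called higher (background 1.32%), and the list median was 0.41. The promoters of both are shown because they are the family's changed members. The metal response core TGCACNC or TGCGCNC, on either strand, is in capitals, 4 times in Mt2 and 3 times in Mt1, up to 30 bases past the gene start.
Mt2, chr8:94172368-94172647, plus strand: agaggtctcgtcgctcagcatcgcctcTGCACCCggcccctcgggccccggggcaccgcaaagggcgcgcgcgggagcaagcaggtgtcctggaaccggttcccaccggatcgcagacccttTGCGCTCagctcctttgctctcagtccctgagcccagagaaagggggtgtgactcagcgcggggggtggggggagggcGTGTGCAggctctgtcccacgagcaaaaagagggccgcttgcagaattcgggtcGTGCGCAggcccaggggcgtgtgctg
Mt1, chr8:94178839-94179118, plus strand: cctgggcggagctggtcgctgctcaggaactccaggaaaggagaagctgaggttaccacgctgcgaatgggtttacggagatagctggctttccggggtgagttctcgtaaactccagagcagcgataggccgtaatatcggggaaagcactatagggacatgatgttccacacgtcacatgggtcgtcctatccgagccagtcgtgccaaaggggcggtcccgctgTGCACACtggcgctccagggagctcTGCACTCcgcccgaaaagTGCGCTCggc

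The core is short and frequent: it stood in 37.1% of the common rises, 43.7% of the common falls and 39.6% of all genes tested.

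Asns, asparagine synthetase, read 10.57, 10.24 and 9.82 in Fancc-/-, 9.71, 9.53 and 9.39 in Fancg-/-, 10.06, 9.92 and 9.72 in double-knockout and 8.61, 8.63 and 8.41 in wild-type marrows. Every knockout array was at least 0.76 above wild type (1.33 ± 0.14, 2.52-fold higher, adjusted p = 0.00183, limma), and a second probe set of the gene gave 1.46 ± 0.16. Asns is a known target of ATF4, the factor of the integrated stress response, but of 16 tested members of that list it was the only 1 called (background 1.32%), and the list median was 0.32, with 0.06 in Fancc-/-, 0.08 in Fancg-/- and 0.70 in double-knockout marrow. Trib3 and Chac1, other ATF4 targets named after their values were seen, read 7.77 to 8.56 on double-knockout replicates 2 and 3, against 5.78 to 7.14 on the other 7 knockout arrays and 5.17 to 5.99 in wild type, and did not pass the test (adjusted p = 0.0771 and 0.265, limma). The amino acid response element TGATGAAAC, searched after the values were seen, stood in 1 of 105 common rises with a promoter, Asns, and in 18 of 9320 genes tested (0.2%); it is in capitals in the Asns promoter, which ends 30 bases past the gene start.
Asns, chr6:7693180-7693459, minus strand: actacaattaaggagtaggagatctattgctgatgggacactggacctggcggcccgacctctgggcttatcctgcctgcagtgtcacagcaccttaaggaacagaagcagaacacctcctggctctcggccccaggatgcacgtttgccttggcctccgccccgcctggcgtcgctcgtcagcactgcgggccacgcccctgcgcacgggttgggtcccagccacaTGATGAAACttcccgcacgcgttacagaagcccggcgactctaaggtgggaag

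Further rises with a wide gap were not in any list. Tjp1, the tight-junction scaffold ZO-1, read 8.04, 7.21 and 6.17 in Fancc-/-, 6.56, 6.87 and 6.43 in Fancg-/-, 7.33, 6.19 and 6.84 in double-knockout and 5.34, 5.26 and 5.04 in wild-type marrows; its gap of 0.83 was the widest among the rises (1.64 ± 0.32, adjusted p = 0.0181, limma). Crip2, a LIM-domain protein, changed by 1.28 ± 0.22, Atp1b2, a beta subunit of the sodium pump, by 1.10 ± 0.16, Cyth3, an exchange factor for ARF GTPases, by 1.15 ± 0.12, Ces2g, a carboxylesterase, by 1.20 ± 0.19, and Prxl2a, a peroxiredoxin-like protein, by 1.27 ± 0.21. Tlcd4 changed by 1.38 ± 0.30. Lmna, which encodes lamin A and C, changed by 1.32 ± 0.19 on the probe set used, but by 0.41 ± 0.12 and -0.06 ± 0.10 on its other fitted probe sets, so its rise depends on the probe. Among oxidative stress genes 2 of 15 were called higher (background 1.32%) and 0 lower (1.57%): Blvrb, biliverdin reductase B, abundant in red cells (0.89 ± 0.13), and Gclm, which takes part in glutathione synthesis (0.83 ± 0.16).

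For 129 common genes a further probe set was above the filter. Of these 225 probe sets 213 moved the same way, and the remaining 12 had the opposite sign to the probe set used. In the same direction 78 were called, where 2.89% of all genes tested were called in either direction. The genes were chosen for a call on these same arrays, so the counts describe them and test nothing. Named genes also differed between probe sets, and examples are given here beside the changes above. Another probe set of Mllt3 gave 0.27 and a further one 0.23, of Tlcd4 0.43, of Cyth3 0.38, of Atp1b2 0.51 and of Ctse 0.20, none of them called. Nor were those of Mt1 at 0.57, Prdx2 at 0.62, Zfpm1 at 0.47 and E2f2 at 0.45. Add2 gave 0.35, 0.72, 0.85 and 0.95, none called, though the last 3 had all knockout arrays above wild type. Ank1 gave 0.20 and 0.63, not called, and 1.05, called. Among falls, another probe set of Myo1e gave 0.01, of Dpp4 -0.34, of Sdc4 -0.47, of Irf4 -0.63 and of Bach2 -0.12, again not called, while a further Bach2 probe set was called at -2.90. They share the arrays with the probe set used, so they check the probe and not the mice.

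Markers of the other marrow lineages mostly did not pass the test. No member was called by limma in 7 lists, and the count at an unadjusted p below 0.05 is given in its place (18.4% of all genes). Among early neutrophil granule genes it was 5 of 9 (median change -0.21), among late neutrophil genes 0 of 13 (-0.06), and among monocyte and macrophage genes 5 of 14 (0.10). It was 6 of 16 among T and NK cell genes (-0.22), 1 of 12 among megakaryocyte and platelet genes (0.03), 1 of 13 among stroma, bone and vessel genes (0.54) and 1 of 6 among skeletal muscle genes (0.02). All 9 early neutrophil genes had lower knockout means, and 3 lay below wild type on all 9 knockout arrays (3.66% of all genes). So did 2 of 14 monocyte and macrophage genes, 1 of 16 T and NK cell genes and 1 of 13 stroma genes. Eosinophil, basophil and mast cell genes also had no call, with 6 of 11 at an unadjusted limma p below 0.05 and a median of -0.84. Of these 11, 3 lay below wild type on all knockout arrays, against 3.66% of all genes. Fcer1a, the IgE receptor chain, read 8.41, 8.54 and 5.82 in Fancc-/-, 8.18, 8.50 and 8.42 in Fancg-/-, 8.13, 8.20 and 7.83 in double-knockout and 9.19, 9.62 and 9.63 in wild-type marrows (-1.48 ± 0.44, adjusted p = 0.0985, limma). Fancc-/- replicate 3 alone read below 6, and the list median there was -2.67, against -0.11 to -0.84 on the other 8 knockout arrays. The same array was low for Sox4, H2-Ab1 and Cx3cr1, a chemokine receptor of monocytes (5.25, against 7.16 to 8.74 in the other knockouts and 9.07 to 9.19 in wild type).

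The stroma list had 12 of 13 values above wild type, yet its median on the arrays was -0.03, 0.48 and 0.62 in Fancc-/-, 1.33, 0.67 and 0.24 in Fancg-/-, -0.46, 0.08 and 0.25 in double-knockout and 0.34, -0.16 and -0.35 in wild-type marrows, which overlap. Mmp13, a collagenase of bone, read 3.07, 3.51 and 7.28 in Fancc-/- and 7.57, 5.27 and 5.17 in Fancg-/-, against 2.82, 3.07 and 3.44 in double-knockout and 3.84, 3.07 and 2.92 in wild-type marrows (adjusted p = 0.386, limma). Macrophage complement gene C1qc overlapped in the same way, at 5.72 to 8.07 in the knockouts and 4.33 to 6.36 in wild type. Ppbp, a platelet chemokine, ranged from 4.70 to 10.28 within wild type alone. The part of stroma or macrophages in the results was not tested. Among neutrophil genes Cxcr2, a receptor for chemokines, read 6.65 and 6.71 on double-knockout replicates 2 and 3, against 8.73 to 9.55 on the other knockout arrays and 8.86 to 9.02 in wild type.

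Immediate early genes, which respond within minutes to stimulation and to handling of cells, had lower knockout means in 22 of 22 cases, with a median of -0.72. At an unadjusted p below 0.05 there were 18 of 22 (18.4% of all genes), and after adjustment 2 were called lower (background 1.57%): Dusp2, a phosphatase that restrains MAP kinases (-1.25 ± 0.18, adjusted p = 0.00444), and Jund, a subunit of AP-1 (-0.45 ± 0.10, adjusted p = 0.0351, both limma). Dusp2 read 8.27, 8.32 and 7.78 in Fancc-/-, 8.70, 9.11 and 9.11 in Fancg-/-, 8.76, 7.97 and 8.07 in double-knockout and 9.57, 9.72 and 9.81 in wild-type marrows, with no overlap. For the list as a whole the arrays overlapped: its median was -0.57, -0.71 and -0.46 in Fancc-/-, -0.42, -0.16 and -0.51 in Fancg-/-, -0.34, -1.57 and -1.60 in double-knockout and -0.40, 0.27 and 0.21 in wild-type marrows. Of 21 TNF and toll-like receptor genes 1 was called lower (background 1.57%), the chemokine gene Ccl3 (-1.22 ± 0.24), whose arrays overlapped, and the list median was -0.31.

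Of 23 Fanconi and crosslink repair genes only Fancg was called, itself a deleted gene, and the median was 0.06. Of 17 p53 targets (median 0.12), 23 replication and mitosis genes (median 0.08) and 18 type I interferon genes (median 0.11) 0 were called in either direction by limma, and 2, 3 and 2 had an unadjusted p below 0.05, where 2118 of all 11525 genes did. Values with the largest change in these lists were Plk2 at -0.70 ± 0.38 and Apaf1 at -0.63 ± 0.30, both p53 targets, Cdc6, a replication licensing factor, at 0.44 ± 0.16, Top2a, topoisomerase II alpha, at -0.32 ± 0.19, Bst2, an antiviral tether, at -0.83 ± 0.31, and Stat2, an interferon signalling factor, at -0.55 ± 0.18. Of the 50 tested genes nearest to Fancc on chromosome 13, 0 were called by limma (7 at an unadjusted p below 0.05). Of the 50 nearest to Fancg on chromosome 4, 2 (4%, against 2.89% of all genes) were called, Fam214b at 0.65 ± 0.12 and Cd72, an inhibitory receptor of B cells, at -1.92 ± 0.31.

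How many genes were called rested on single arrays. Leaving out wild-type replicate 1, 2 or 3 left 154, 60 and 83 genes called, and leaving out double-knockout replicate 1 raised the count to 759. Without Fancc-/- replicate 3 it was 565, without Fancg-/- replicates 1 and 2 it was 206 and 200, and without double-knockout replicate 3 it was 220. Without the 2 Fancg-/- arrays that carry both sex marks, an alternative added after the data were seen, 117 genes were called, of which 111 were on 1 side in all arrays kept. With only the Fancc-/- and wild-type arrays in the model, also added later, 240 genes were called, and 148 of the 275 common genes were among them. Of the 76 named genes that were called, 25 were called whichever array was left out, and 22 of these in every other setting in which they could be read, except the Xist term. Of the 22, Akap12, Cyth3, Myo1e, Rag1 and Trib2 had no value in 1 or 2 of the settings on the filter and the probe sets. The 22 were Rag1, Vpreb3, Bach2, Ebf1, Spib, Irf4, Cd79a, Cd37, Niban3, Akap12, Trib2, Rgs2, Dusp2 and Myo1e among the falls, and Mt2, Asns, Add2, Tmod1, Tspan33, Glrx5, Atp1b2 and Cyth3 among the rises.

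**Figure D5:**
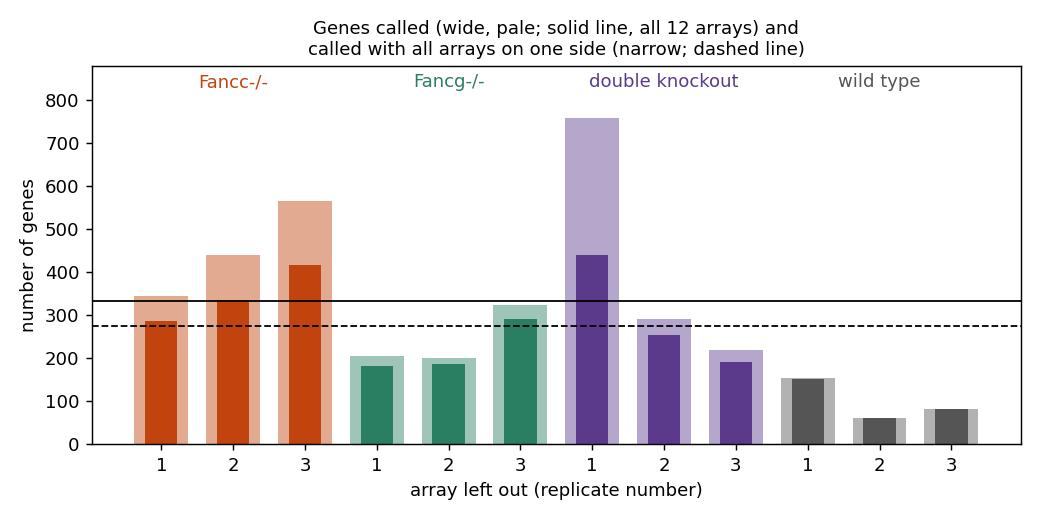
Number of genes called (wide pale bars) and called with all remaining knockout arrays on 1 side of wild type (narrow dark bars) after leaving out each array in turn; lines mark the counts with all 12 arrays, 333 (solid) and 275 (dashed). Counts ran from 60 without wild-type replicate 2 to 759 without double-knockout replicate 1.

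The threshold fell within a continuum of values. Just inside it lay Edem3 (-0.51 ± 0.12, adjusted p = 0.0497) and Foxn2 (-0.42 ± 0.10, adjusted p = 0.0499), and just outside it Specc1 (0.86 ± 0.21, adjusted p = 0.0507) and Fntb (0.57 ± 0.14, adjusted p = 0.0512, all limma), both of which separated on all arrays. In all, 431 genes separated without being called and 58 were called although their arrays overlapped.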

How the data were processed

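Whole-marrow RNA of 12 mice was measured, 9 knockout and 3 wild type. Each probe set has a deposited log2 signal, for which the submitters' processing notes name RMA and Partek, with no version given. RMA adjusts background, sets the arrays to a common distribution and summarizes probes, so a change in most genes at once would be hidden. The table held 45101 probe sets, with values from 2.43 to 14.6, array medians from 4.79 to 4.87 and 0 unused sample columns. With 3 arrays per group, their number sets the precision.

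Probe sets with 1 gene symbol (34958) were matched by Entrez ID to the GRCm38.p6 gene table (34754), and those on autosomes (33588) were kept. The probe set with the highest mean stood for its gene, which entered the test if above the array median on at least 3 arrays; 5879 dim genes were not tested. Genes were fitted with limma 3.58.1 in R 4.3.3 on 4 group means with a variance trend (8 residual degrees of freedom), tests were 2-sided, and p was adjusted by Benjamini-Hochberg. The contrast was the mean of 3 knockout means minus wild type. An F test compared the knockout groups. The script was tested on simulated data.

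Named genes were the 12 largest common rises and falls, the 6 with the widest gap and the 5 most even and 5 most uneven each way, the targeted genes, and up to 4 called members per list (up to 2 by size where none was called). Genes and the 28 lists were chosen with earlier results of these data known. Promoters are those of RefSeq, found by symbol for 9320 of the tested genes. Alternatives changed the filter, probe set, normalization, model, chromosomes and arrays used. One motif window is not reported here.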

Additional observations from a re-analysis of the deposited data

Results flagged for a closer look

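Of 99 named genes examined for a knockout array far from the other 8 (Dixon's test at 95%), 16 had one. The 9 arrays come from 3 genotypes, and the genes were chosen from these data and often share a list. The nominal level of 1 in 20 therefore gives no expected count, and the flags are a description. High on Fancg-/- replicate 3 were Rag1 at 6.53, Vpreb1 at 8.92, Vpreb3 at 8.74, Igll1 at 8.55, Niban3 at 7.50, Akap12 at 6.56 and Fcrla at 8.11. That array had the smaller RNA input and both sex marks, whose part was not tested. Without it, 323 genes were called and 292 of these were on 1 side on all arrays kept.

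Low on Fancc-/- replicate 3 were Fcer1a at 5.82, Cx3cr1 at 5.25, Bst2 at 6.20, Sox4 at 6.56, H2-Ab1 at 8.92 and H2-Eb1 at 9.78, and Pvalb, a muscle gene, was high there at 5.44. On double-knockout replicate 1, Cldn13 was high at 11.07 and Gzma, a granzyme of NK cells, was high at 8.25.

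Y-linked transcripts, outside the comparison, were above every wild-type array in part of the knockouts. Eif2s3y reached 9.35 on a knockout array, Kdm5d 5.67 and Uty 4.40.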

How the results depend on the processing

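The count of 333 called genes and of 275 common genes became 1500 and 610 with array weights, 158 and 148 with knockouts as 1 group in the model, 0 and 0 with Xist as a covariate, and 117 and 111 without the Fancg-/- arrays with both sex marks (added after the data were seen), where 1094 genes separated. Genes that separated numbered 1299 without the Fancg-/- group and 1083 without the double-knockout group, since fewer arrays had to agree. Genes that differed among knockout groups numbered 2080 with array weights, 1 with X and Y genes kept or without the Fancc-/- group, and 2 without the double knockouts. Leaving out each array in turn gave 60 to 759 called genes, 60 to 440 common genes, 744 to 1482 genes that separated and 0 to 1053 genes that differed among knockout groups. In the other settings 240 to 410 genes were called.

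Signs turned for the change of Lmna (-0.0578 with only probe sets not marked as shared between transcripts or genes) and for genes that were not called: the change of Ppbp (-0.0778 to 2.72 when single arrays were left out), the change of Pvalb (-0.0182 to 0.25, likewise), the change of Fancc (0.0625 as the mean of probe sets, -0.14 to 0.0039 with single arrays left out, 0.0311 without the double knockouts, 0.0157 in Fancc-/- alone), the change of Mmp9 (0.0125 with Xist), the change of Top2a (0.014 as the mean of probe sets, 0.36 with only unshared probe sets) and the change of Cxcr2 (0.15 without the double knockouts, 0.20 in Fancc-/- alone). The causes were not tested.

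A check of the replicate numbers shared by the groups gave no sign that they pair the mice. Deviations of same-numbered arrays correlated at -0.366 to 0.195 over 18 pairs, 5 of them over 0.1. Of 12 arrays, 3 correlated best with their own number. With 3 arrays per group, this check is too weak to show that no pairing exists. With the replicate number as a block 323 genes were called, 261 of them common.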

Other observations

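Some common genes outside the lists belong to known families and are named after their values were seen, so their grouping is a description. Gimap1, Gimap6 and Gimap7, neighbouring GTPase genes of lymphocytes on chromosome 6, changed by -1.28 ± 0.21, -0.99 ± 0.20 and -1.10 ± 0.26. Both enzymes of the glyoxalase path, which clears methylglyoxal, were higher, Glo1 at 0.79 ± 0.12 and Hagh at 0.62 ± 0.11. Other fitted probe sets of Glo1 gave 0.55, 0.23 and 0.62, none called, while those of Hagh were called at 0.65 and 0.55. Slc7a5, a carrier of large neutral amino acids, and Aars, alanyl-tRNA synthetase, changed by 0.74 ± 0.15 and 0.76 ± 0.16. Another probe set of Aars gave 0.56 and another of Gimap6 gave -0.96, neither called. Of genes known from autophagy, 3 among the common rises (1.09% of all genes) are Ulk1, a kinase, at 0.68 ± 0.15, Atg4b, a protease, at 0.49 ± 0.10 and Gabarapl2 at 0.44 ± 0.07. Their other fitted probe sets were not called, at 0.49 for Ulk1, 0.37 and 0.22 for Atg4b and 0.31 for Gabarapl2. Other genes of the pathway were not counted, so nothing is said of the pathway. Abcg2, a transporter of porphyrins and drugs, changed by 1.06 ± 0.25, and Aldh1a1, an aldehyde dehydrogenase, by 0.77 ± 0.16, with 1.25 in Fancc-/-, 0.47 in Fancg-/- and 0.59 in double-knockout marrow.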
